A study of Mus musculus with 5 samples.

Results

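Hepatocytes taken from mouse liver 96 h after removal of 2/3 of the organ were compared with hepatocytes of an adult control liver, to see which transcripts had not come back to the control level. In each library a barcode was counted as a hepatocyte when it held at least 5000 unique molecular identifiers (UMIs, 1 per captured RNA molecule), when 10 to 30% of them came from mitochondrial genes, and when Alb, Apoa1 and Ttr together gave at least 1% of them. This rule found 771 hepatocytes at 96 h and 925 in the control, 1696 of the 5691 hepatocytes that it found in the 5 libraries of the series and of 14704 barcodes with at least 5000 UMIs. The counts of these cells were summed in each library and scaled to a common total without the mitochondrial genes (CPM, the standard scale on which all genes of a library sum to 1e6).

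All 5 libraries came from C57BL/6J mice: liver cells of postnatal day 14, of an adult control, and of adults operated on at 8 weeks and taken 24 h, 48 h or 96 h after partial hepatectomy. Livers were dissociated by a 2-step perfusion, dead cells were removed with a kit, and the live cells were profiled with 10x Genomics version 3 chemistry, which reads the 3' end of each RNA. No allele, transgene or drug was named for any group. The protocol text lists the control with the operated samples, at the same age of 8 weeks, whereas its title, source and age labels call it an adult control, and it is treated as one here. Each group is 1 library, and the number of animals behind a library was not given, so no test between the groups was possible: a gene is called higher or lower when its levels differ at least 2-fold, and every interval covers counting error only. A code in the labels separates the control library from the 4 others, and whatever it stands for cannot be told apart from the group.

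After partial hepatectomy the remaining lobes of a mouse liver grow until the lost mass is restored. Hepatocytes leave their resting state, copy their DNA, divide, and meanwhile go on making plasma proteins, bile acids and urea. Adult male mouse hepatocytes also make large amounts of major urinary proteins, small pheromone carriers that are secreted into the blood and passed into the urine. These genes depend on pulses of growth hormone, and many male-biased and female-biased liver genes follow the same hormone.

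The cells had a median of 18527 UMIs in the control and 22075 at 96 h, and their summed counts came to 13316829 and 13439340 UMIs outside the mitochondrial genes. Alb, Apoa1 and Ttr made up a median of 2.86% of a control cell and 5.77% of a 96 h cell, and 4 and 5 barcodes failed only this minimum. Barcodes with over 30% mitochondrial UMIs numbered 501 in the control and 1703 at 96 h. The 2 sets of hepatocytes shared 0 barcodes. Of the 10 hepatocyte markers 3 are the genes of the rule and check nothing, and the other 7 were above 10 CPM in both libraries; among these Hnf4a, the nuclear receptor that maintains the hepatocyte program, stood at 389 CPM in the control and 291 at 96 h. Both libraries showed the pattern of male cells, with 0 and 1 counts of Xist and 112 and 128 CPM of the Y-linked Ddx3y.

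Most of the transcriptome was back within 2-fold of the control. Of 7368 genes with at least 10 CPM in either library, 6974 (94.7%) differed by less than 2-fold, 265 (3.6%) were at least 2-fold higher at 96 h and 129 (1.75%) at least 2-fold lower, 394 (5.35%) in all. The median log2 ratio over these genes was 0.04, and 63 genes were at least 4-fold higher and 33 at least 4-fold lower. Against the same control, 590 (7.85%) of 7514 genes were higher and 536 (7.13%) lower at 24 h, and 586 (7.79%) of 7519 were higher and 599 (7.97%) lower at 48 h. These comparisons share the control library. Against the 48 h library, 335 (4.52%) of 7416 genes were higher at 96 h and 287 (3.87%) lower, 622 (8.39%) in all. Members of gene lists are read against these shares; where a list is counted, only members with at least 10 CPM in either library enter, which favours members that are high in 1 of the libraries. In the plot of control against 96 h levels, the strongest departures below the diagonal were the major urinary protein genes and Moxd1, and those above it included Abcd2, Hamp2, Cyp7a1 and Spp1.

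**Figure D1:**
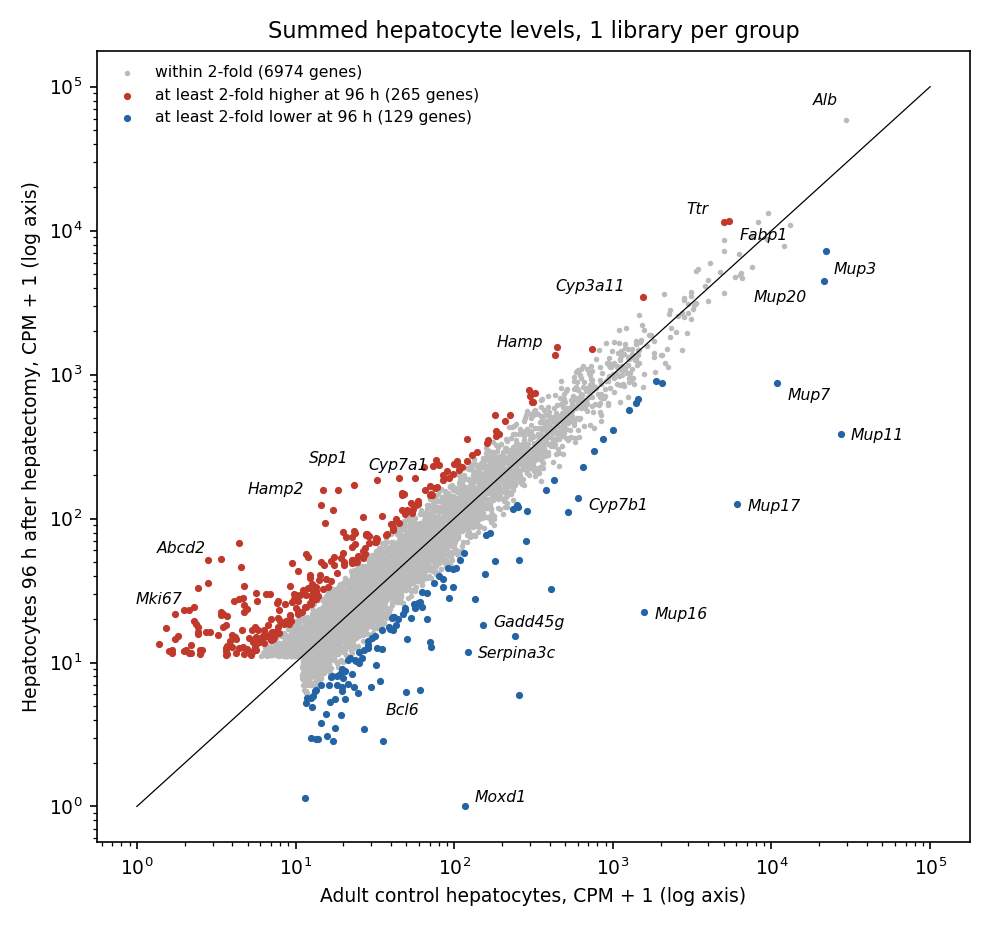
Summed hepatocyte level of each gene with at least 10 CPM in either library, control on the x axis and 96 h on the y axis, both as CPM + 1 on log axes; each point is 1 gene, and the line marks equal levels. Blue points are the 129 genes at least 2-fold lower at 96 h, among them most Mup genes, red points the 265 at least 2-fold higher, and grey points the 6974 genes within 2-fold.

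The major urinary protein genes made the largest loss. The 21 Mup genes of the annotation lie on chr4:59956804-62150863 (mm10), and many are such close copies that reads can be split between them, so single members are less certain than their sum. How reads shared by copies were assigned is not given in the sources used here. RefSeq promoters (GRCm38.p6, the assembly of mm10) were matched for 10 of the 14 Mup genes with at least 10 CPM. In 8 of these a common block of 10 bases, with which each sequence shown here begins, was followed by the motif TATATAA, and the stretch between them was 58 to 61 bases long in Mup3 and Mup21 and 86 to 97 bases long in the 6 others. Shown here are Mup11 and Mup17, which were the lowest of them relative to the control, Mup10, a long-stretch gene within 2-fold of it, and Mup3 and Mup21, the pair with the short stretch. All are on the minus strand, printed 5' to 3' from the common block to that motif, which is in capitals: Mup11 at chr4:60662391-60662502, Mup17 at chr4:61595851-61595962, Mup10 at chr4:60582179-60582291, Mup3 at chr4:62087322-62087399 and Mup21 at chr4:62150843-62150917.
Mup11: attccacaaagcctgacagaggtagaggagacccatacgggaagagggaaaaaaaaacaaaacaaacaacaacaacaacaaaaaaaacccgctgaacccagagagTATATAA
Mup17: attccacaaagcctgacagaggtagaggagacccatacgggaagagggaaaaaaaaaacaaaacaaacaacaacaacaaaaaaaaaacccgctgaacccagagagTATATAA
Mup10: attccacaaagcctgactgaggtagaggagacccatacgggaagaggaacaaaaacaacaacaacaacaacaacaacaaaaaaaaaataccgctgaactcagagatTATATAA
Mup3: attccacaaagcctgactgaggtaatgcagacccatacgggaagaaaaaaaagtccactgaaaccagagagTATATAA
Mup21: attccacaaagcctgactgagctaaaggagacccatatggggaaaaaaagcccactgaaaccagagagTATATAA
The short-stretch genes Mup3 and Mup21 had log2 ratios of -1.61 and -0.84 at 96 h, and the 6 others ranged from -6.14 for Mup11 to -0.69 for Mup10. The motif TATATAA, searched on both strands, was in 9 of the 10 matched Mup promoters of 300 bases and in 3.24% of 32851 promoters of that length. TTCNNNGAA, the motif of the growth hormone-activated factor STAT5, was in 0 of the 10, in 2 of 17 matched promoters of male-biased genes and in 8.30% of all promoters. These matches describe the letters in the window and were not tied to any binding measurement.

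The 21 Mup genes together gave 9.1% of the non-mitochondrial UMIs of control hepatocytes, and 4.08, 1.54 and 1.34% of those at 24, 48 and 96 h. The summed share at 96 h was 6.79-fold below the control and the lowest of the 4 libraries. Of the 14 genes with at least 10 CPM, 12 were at least 2-fold lower (1.75% of all genes tested were), 0 were higher, and Mup10 and Mup21 lay within 2-fold. Their median log2 ratio was -3.64, against 0.04 over all genes. Mup15 and Mup18 were under 10 CPM at 96 h, so they entered through the control library and had to be lower at 96 h.

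Mup11, the most abundant member in the control, stood at 27298 CPM in the control and 8269.6, 2017 and 385 CPM at 24, 48 and 96 h. Mup17 stood at 6046 CPM in the control and 1745, 361 and 125 CPM at 24, 48 and 96 h. Mup16 stood at 1571 CPM in the control and 512, 77.3 and 21.3 CPM at 24, 48 and 96 h. Each of these 3 genes was lower in every later library than in the one before. At 96 h the level of Mup11 was 0.0141 times that of the control (95% interval 0.0137 to 0.0145), Mup16 0.0135 times (0.012 to 0.0152) and Mup17 0.0206 times (0.0196 to 0.0216). These intervals cover counting error alone, and the choice of cells moved Mup17 further: its log2 ratio of -5.59 became -3.79 in the 410 control and 739 96 h cells with at least 3% of UMIs from the rule's genes and -7.09 in the 87 and 53 cells with 10 to 20% mitochondrial UMIs. Mup11 ranged from -6.37 to -5.81 and Mup16 from -6.36 to -5.63 over all alternatives. Mup18 fell from 256 CPM in the control and 216 at 24 h to 11.5 at 48 h and 4.91 at 96 h, and its drop came after 24 h. In the free RNA of empty droplets Mup11 stood at 24139 CPM in the control and 371 at 96 h, close to the cells of the same library in each case.

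Other members stood further from 0 at 96 h. Mup7 stood at 10817 CPM in the control and 4139, 1663 and 873 CPM at 24, 48 and 96 h. Mup3, near the end of the cluster, stood at 21979 CPM in the control and 14119.5, 8100.1 and 7192 CPM at 24, 48 and 96 h. Mup20, the gene of darcin, a pheromone that attracts females, stood at 21418 CPM in the control and 10523, 2656 and 4464 CPM at 24, 48 and 96 h. Mup20 alone of these was higher at 96 h than at 48 h, by 0.75 on the log2 scale, which is less than 2-fold, and its ratio to the control was -2.26. Log2 ratios of -2.24 for Mup1, -3.99 for Mup9, -3.66 for Mup12, -1.93 for Mup14 and -3.64 for Mup15 were also past 2-fold. Mup10 (-0.69) and Mup21 (-0.84) were not, and Mup21 had passed its control level of 213 CPM at 24 h, with 376 CPM. Mup10, Mup14 and Mup21 were named after their values were seen.

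**Figure D2:**
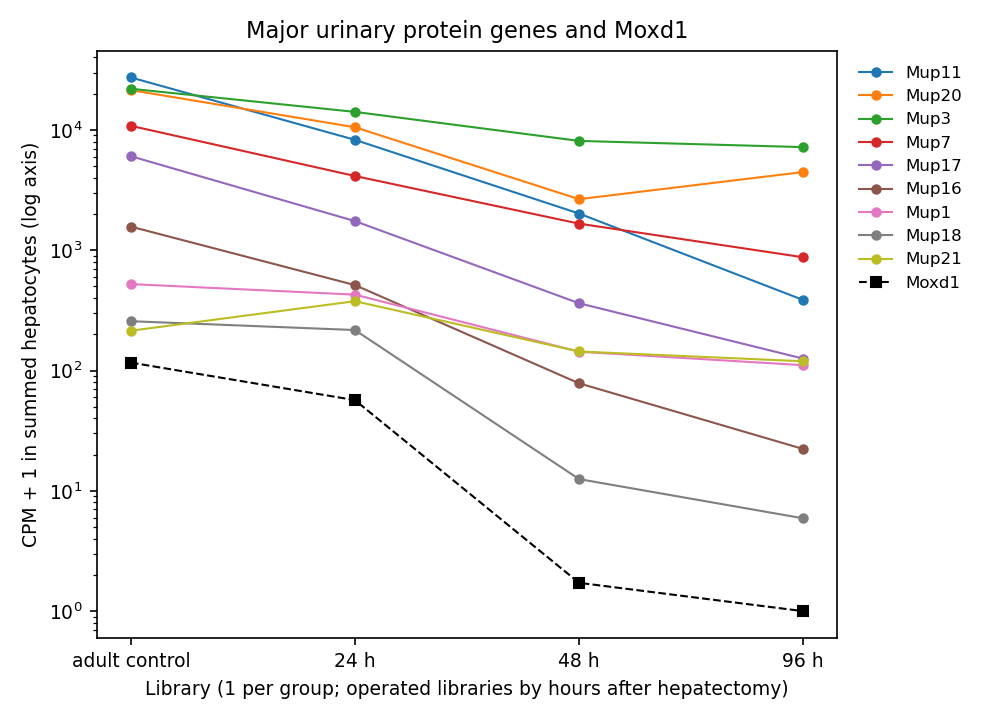
Levels of 9 Mup genes (circles) and of Moxd1 (black squares) in summed hepatocytes of the adult control and of the libraries taken 24 h, 48 h and 96 h after hepatectomy, as CPM + 1 on a log axis, 1 library per group. Mup11 falls from 27298 to 385 CPM, Mup20 stands higher at 96 h than at 48 h, and Moxd1 reaches 0 counts at 96 h.

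Lower Mup levels were spread over nearly all cells. Mup UMIs made up a median of 9.45% of a control hepatocyte, with 6.14% at the 5th percentile and 14.0% at the 95th. In 96 h hepatocytes the median was 1.26%, with 0.590% and 3.03% at the same percentiles. Only 1 of the 771 cells at 96 h reached the 5th percentile of the control, and 0 of the 925 control cells were at or below the 95th percentile at 96 h. The ranges of the cells as a whole met, since the lowest control cell had 3.53% and the highest 96 h cell 6.49%. At 24 h and 48 h the cell medians were 4.25% and 1.56%.

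**Figure D3:**
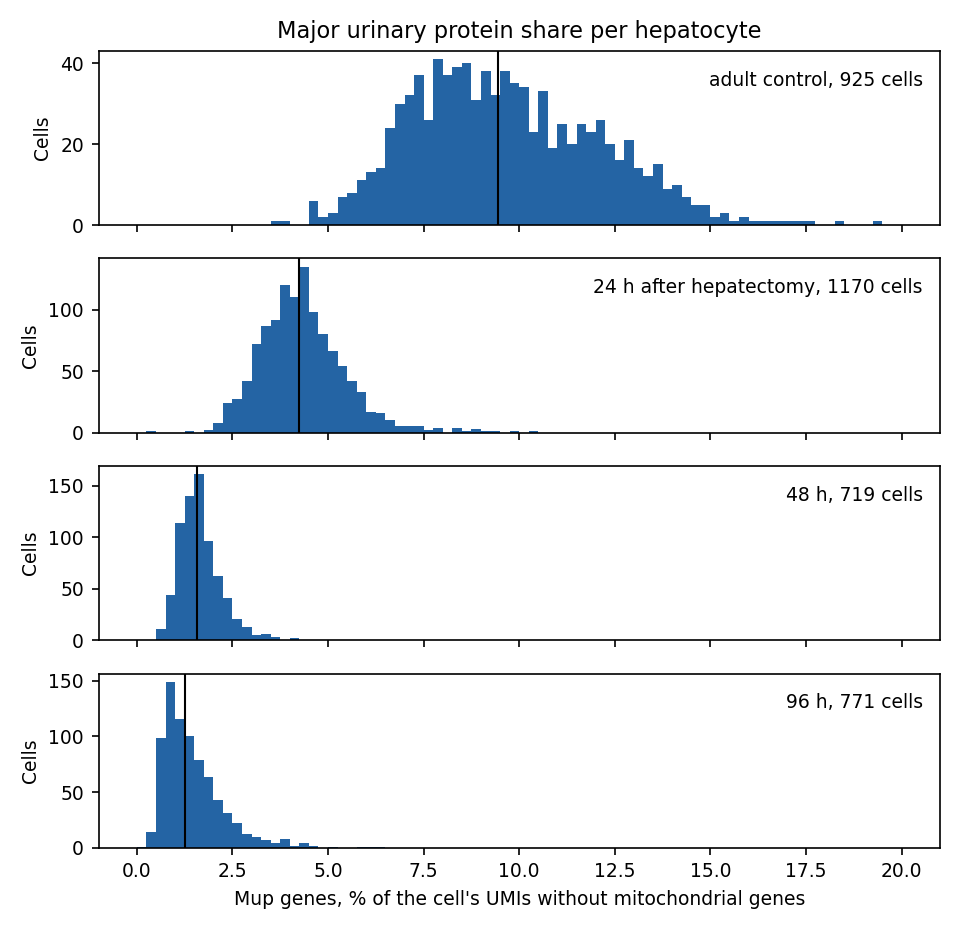
Share of Mup genes among the non-mitochondrial UMIs of each hepatocyte in 4 libraries; the x axis is that share in percent, the y axis the number of cells in bins of 0.25 percentage points, and the black line is the median. The bulk of the cells moves from 9.45% in the control to 1.26% at 96 h, and 1 of the 771 cells at 96 h reaches the 5th percentile of the control, 6.14%.

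Cells were also ordered by a score of pericentral over periportal genes after thinning to 5000 UMIs, and each library was split at its own tertiles into a portal, a middle and a central range of cells. These are ranges and not cell types, and 210 control cells and 144 cells at 96 h lay within 0.25 of a boundary. Mup genes gave 8.48, 8.95 and 9.82% of the UMIs in the portal, middle and central range of the control, and 1.83, 1.25 and 1.02% at 96 h, so the order over the ranges was opposite in the 2 libraries. Mup20 had 28198, 22907 and 13702 CPM from portal to central in the control and 7441, 4124 and 2332 at 96 h, highest in the portal range of both. Mup17 had 1115, 1628 and 14790.4 CPM in the control and 56.6, 63.6 and 235 at 96 h, highest in the central range of both. Mup11 had 20349, 28568 and 32582 CPM in the control and 71.9, 149 and 853 at 96 h. These 3 members kept their own order over the ranges, while the sum of the family changed its order.

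Moxd1, which encodes a monooxygenase related to dopamine beta-hydroxylase, had no count left at 96 h. It lies at chr10:24223517-24302790 on the plus strand. Its counts were 1537 in the control (115 CPM), 1088 at 24 h (55.8 CPM), 15 at 48 h (0.72 CPM) and 0 at 96 h. Taking 3 counts as the floor for the 96 h library, the level was at least 517-fold lower than in the control. After thinning to 5000 UMIs, 276 of 925 control cells (29.8%, exact interval 26.9 to 32.9%) and 0 of 771 cells at 96 h held a Moxd1 UMI, which allows a share of up to 0.389% at 96 h by the floor of 3 counts and up to 0.477% by the exact 2-sided interval. Leukocyte barcodes, which should lack it, held a Moxd1 UMI in 8.33% of 612 in the control and 0 of 195 at 96 h, at median depths of 6526 and 7038 UMIs before thinning.

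Male-biased genes outside the Mup cluster were lower as well, though by less. Of 24 such genes, Moxd1 among them as the lowest, 23 had at least 10 CPM in either library: 10 were at least 2-fold lower (1.75% of all genes tested were), 12 lay within 2-fold, and Gstp1 was higher. The median log2 ratio was -0.85, and 22 of the 23 were below 0. Moxd1 and Ugt2b38 were under 10 CPM at 96 h, so they entered through the control library and had to be lower at 96 h. Cyp7b1, the oxysterol 7-alpha-hydroxylase, stood at 605 CPM in the control and 219.7, 139 and 139 CPM at 24, 48 and 96 h. Elovl3, an elongase of long-chain fatty acids, stood at 254 CPM in the control and 69.2, 53.2 and 50.4 CPM at 24, 48 and 96 h. Cyp4a12a, the male fatty acid omega-hydroxylase, stood at 284 CPM in the control and 65.5, 53.2 and 68.5 CPM at 24, 48 and 96 h. All 3 were low by 24 h and still low at 96 h.

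Ugt2b38, a glucuronosyltransferase, stood at 59.6 CPM in the control and 3.43, 0.864 and 5.43 CPM at 24, 48 and 96 h. Selenbp2, a selenium-binding protein, stood at 1259 CPM in the control and 149.7, 161 and 566 CPM at 24, 48 and 96 h, and had regained part of its level by 96 h. Beside Moxd1, the other genes of this list past 2-fold, named after their values were seen, were Hsd3b5 (log2 -1.84), Cyp4a12b (-1.76), Ugt2b1 (-1.52), C6 (-1.02) and, in the other direction, Gstp1 (1.81). Gstp1, Cyp4a12 and Ugt2b genes have close copies, so their counts are uncertain between copies. Gstp1 was also more abundant in the free RNA of empty droplets at 96 h (5139 CPM) than in the cells (1559.9 CPM). With the mean content of an empty droplet subtracted from each cell, its log2 ratio was 2.04 against 1.81. Egfr, the receptor of epidermal growth factor, was within 2-fold, at 568 CPM in the control and 448 at 96 h.

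Most genes with a female bias in adult liver were under 10 CPM in both libraries. Of 29, 4 had at least 10 CPM in either library, of which 3 were higher at 96 h (3.6% of all genes tested were), and 9 had 0 counts in both. Abcd2, a peroxisomal transporter of very long-chain fatty acids at chr15:91145871-91191799, stood at 2.4 CPM in the control and 2.51, 10.6 and 51.1 CPM at 24, 48 and 96 h. Its 96 h level was 21.3 times that of the control (interval 14.9 to 31.4). With under 10 CPM in the control, Abcd2 entered the list through the 96 h library and had to be higher there. Hamp2, a paralog of the iron hormone hepcidin at chr7:30922372-30924681, stood at 13.9 CPM in the control and 5.12, 3.5 and 157 CPM at 24, 48 and 96 h, 11.3 times the control (interval 9.74 to 13.2). Both rose between 48 h and 96 h.

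A thinned UMI of Abcd2 was found in 0.865% of control cells and 17.1% of 96 h cells, against 0.327% and 0.513% of leukocyte barcodes. For Hamp2 the shares were 3.14% and 26.6% of hepatocytes and 0.817% and 17.9% of leukocyte barcodes. In empty droplets at 96 h Hamp2 stood at 223 CPM, above its level in the cells, and Abcd2 at 26.5 CPM, below it. With free RNA subtracted the log2 ratio of Hamp2 was 3.32 against 3.41. Unthinned, 3.24% and 51.5% of cells held Abcd2 and 6.27% and 48.9% held Hamp2. Cyp4a10, a fatty acid omega-hydroxylase, was higher too (log2 2.74), and Trim24, a transcriptional cofactor, lay within 2-fold (0.50). Named after their values were seen, Cyp3a41a, Cyp2b13, Sult2a1 and Cux2, which are strongly female-biased in adult liver, were among the genes with 0 counts, and Cyp2b9 and Cyp2a4 stood at 1.64 and 4.54 CPM at 96 h.

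Genes of the growth hormone and insulin-like growth factor axis were mixed. Of 15 with at least 10 CPM, 2 were lower, Bcl6 and Irs2, and 2 were higher, Onecut1 and Prlr. Over all genes tested 1.75% were lower and 3.6% higher. Bcl6 and Irs2 were under 10 CPM at 96 h, so they entered through the control library and had to be lower at 96 h. Bcl6, a repressor that growth hormone pulses and STAT5 control in liver, stood at 49 CPM in the control and 10.0, 18.7 and 5.21 CPM at 24, 48 and 96 h, a log2 ratio of -3.01. Onecut1, a hepatocyte transcription factor, stood at 19 CPM in the control and 6.87, 7.06 and 56.4 CPM at 24, 48 and 96 h. Prlr, the prolactin receptor, stood at 49.8 CPM in the control and 126, 177 and 114 CPM at 24, 48 and 96 h. The hormone's receptor and its best known product were near the control: Ghr had a log2 ratio of -0.27 and Igf1 of 0.38, and Socs2, a feedback inhibitor of the receptor, of -0.78. The insulin receptor substrate Irs2 was at -1.03.

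Mitosis genes were above the control at 96 h. Of 36 mitosis genes, 25 had at least 10 CPM in either library; 22 of these were at least 2-fold higher (3.6% of all genes tested were), 0 lower, and Tubb5, Cks2 and Pttg1 lay within 2-fold. Of the 25, 19 were under 10 CPM in the control, so they entered through the 96 h library and had to be higher there. Pttg1 was named after its value was seen. Their median log2 ratio to the shared control was 2.90, 4.45 and 2.70 at 24, 48 and 96 h. Summed over the list, the level went from 388 CPM in the control to 1778, 3604 and 1379 at 24, 48 and 96 h. The sum was highest at 48 h.

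Mki67, the proliferation antigen that coats mitotic chromosomes, stood at 1.43 CPM in the control and 46.7, 119.9 and 32.1 CPM at 24, 48 and 96 h. Ccnb2, a mitotic cyclin, stood at 1.8 CPM in the control and 6.2, 60.2 and 34.7 CPM at 24, 48 and 96 h. Cdca3, a trigger of mitotic entry, stood at 3.38 CPM in the control and 25.1, 146 and 66.6 CPM at 24, 48 and 96 h. All 3 were highest at 48 h and stood between the control and that level at 96 h. Birc5 (survivin), a subunit of the chromosomal passenger complex, rose 12.8-fold over the control at 96 h (interval 9.5 to 17.6). Stmn1, which destabilises microtubules, rose 9.23-fold (interval 7.91 to 10.8), from 13.4 to 124 CPM.

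Promoters of mitosis genes are known for a pair of short motifs. RefSeq promoters were matched for 19 of the 25 genes with at least 10 CPM, taking the first listed start of each. TTTGAA, the core of the cell cycle genes homology region, was on either strand in 13 of the 19 (68.4%) and in 17.9% of all 32851 promoters. CCAAT, the motif of the factor NF-Y, was in 16 (84.2%) and in 37.4% of all. Both were present in 13 of the 19 and in 6.95% of all. Shown are the 3 genes of the highest ratio whose last TTTGAA, on either strand, lies before the start site. They are Mki67 at chr7:135716448-135716537, Cdc20 at chr4:118437344-118437421 and Top2a at chr11:99024190-99024272, all on the minus strand and printed 5' to 3'. Cdc20 and Top2a were named after their values were seen. Capitals mark TTTGAA or its reverse TTCAAA and CCAAT or its reverse ATTGG.
Mki67: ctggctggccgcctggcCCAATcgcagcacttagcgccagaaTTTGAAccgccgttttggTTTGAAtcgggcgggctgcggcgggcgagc
Cdc20: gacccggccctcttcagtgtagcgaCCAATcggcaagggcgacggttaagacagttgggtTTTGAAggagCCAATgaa
Top2a: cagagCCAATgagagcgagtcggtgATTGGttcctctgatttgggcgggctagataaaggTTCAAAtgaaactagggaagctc
Cdc20, which activates the complex that ends mitosis, had 1.43 CPM in the control and 16.7 at 96 h, and Top2a, the topoisomerase that untangles chromosomes, 1.73 and 15.3. Both were at least 2-fold higher, as was Mki67.

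Cells were also sorted by these genes. With 31 of the 36 genes, leaving out Tubb5, Tuba1b, H2afz, Stmn1 and Hmgb2, which cells that do not divide make too, a cell was called positive at 3 or more genes after thinning to 5000 UMIs; this definition was chosen after the data had been seen. Positive cells were 8 of 925 in the control (0.865%, exact interval 0.374 to 1.70%), 20.6% at 24 h, 45.5% at 48 h and 91 of 771 at 96 h (11.8%, 9.61 to 14.3%). Leukocyte barcodes were positive in 5.39% in the control and 13.3% at 96 h; since they may divide themselves, they give no background for these genes. In empty droplets Mki67 stood at 1.04 CPM in the control and 4.72 at 96 h and Cdca3 at 1.64 and 18.7, below their levels in the 96 h cells. By this choice the 91 positive cells held 72.2% of the UMIs of these 31 genes at 96 h, and their median depth was 28208 UMIs against 21186 in the other cells. Without the cells with 3 or more mitosis or replication genes in either library, the median log2 ratio of the full mitosis list was 0.51. Here the full lists were counted, with the genes left out above, and 126 of 925 control and 253 of 771 96 h cells were removed. Because cells were removed by the list's own genes, a lower median was in part fixed by the choice.

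Mup genes were low in both sets of 96 h cells. In the negative cells at 96 h Mup11 stood at 345 CPM and in the positive cells at 625, against 27298 in the control. Mup17 stood at 109 and 219 CPM, and Moxd1 at 0 in both. Abcd2 was higher in the negative cells (55.2 CPM) than in the positive ones (26.4 CPM), and so was Spp1 (173 and 53.8 CPM). Mki67, by contrast, stood at 5.63 CPM in the negative and 194 CPM in the positive cells, a difference that the definition fixed.

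DNA replication genes were closer to the control. Of 35, 12 had at least 10 CPM, with a median of 0.61. Rrm2, Mcm6, Tyms and Rrm1 were higher (3.6% of all genes tested were) and 0 lower. Rrm2, Mcm6 and Tyms were under 10 CPM in the control, so they entered through the 96 h library and had to be higher there. In the mitosis-negative cells at 96 h the log2 ratios of Rrm2, Mcm6, Tyms and Rrm1 to the control were 1.22, 1.87, 0.97 and 0.84. Rrm2, a subunit of ribonucleotide reductase, stood at 3.75 CPM in the control and 94.2, 63 and 24.3 CPM at 24, 48 and 96 h. Mcm6, of the replicative helicase, stood at 3.98 CPM in the control and 116, 59.7 and 22.7 CPM at 24, 48 and 96 h. Both had peaked at 24 h, before the mitosis genes. Pcna, the sliding clamp, was within 2-fold, at 18.3 and 28.6 CPM.

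Ccnd1, the cyclin that starts the cycle in hepatocytes, stood at 25.5 CPM in the control and 369, 141 and 101 CPM at 24, 48 and 96 h, 3.97 times the control at 96 h (interval 3.52 to 4.49). The inhibitors Cdkn1a (2.25) and Cdkn2c (1.61) were higher as well, and Cdkn1a stood at 2.25 CPM in the control and 107, 76.9 and 14.4 CPM at 24, 48 and 96 h. Myc, a growth regulator, was lower: 22.3 CPM in the control and 12, 4.8 and 5.73 CPM at 24, 48 and 96 h. Of the 11 cyclins, inhibitors and regulators with at least 10 CPM, Myc was the only one at least 2-fold lower (1.75% of all genes tested were). Myc was under 10 CPM at 96 h, so it entered through the control library and had to be lower at 96 h. Ccnd1, Cdkn1a and Cdkn2c were at least 2-fold higher (3.6% of all genes tested were). Cdkn1a and Cdkn2c were under 10 CPM in the control, so they entered through the 96 h library and had to be higher there.

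Bile acid synthesis and transport genes were near the control, with 1 member of each list past 2-fold. Cyp7a1, the rate-limiting enzyme of bile acid synthesis at chr4:6265612-6275633, stood at 22.2 CPM in the control and 39.7, 197 and 171 CPM at 24, 48 and 96 h, 7.68 times the control at 96 h (interval 6.8 to 8.69). In cells with at least 3% of UMIs from the rule's genes its log2 ratio was 3.85 against 2.89. It was the only one of 16 bile acid synthesis genes past 2-fold (5.35% of all genes tested were), and the median of the 16 was 0.01. The share of cells with a thinned Cyp7a1 UMI was 6.27% in the control and 31.3% at 96 h, against 1.14% and 2.56% of leukocyte barcodes. From the portal to the central range it stood at 3.24, 13.1 and 48.5 CPM in the control and 24.7, 128 and 329 CPM at 96 h, higher in every range.

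Sterol synthesis and uptake genes leaned upward: 23 of the 25 were above 0, with a median of 0.40 against 0.04 over all genes tested. Among bile acid and anion transporters, Slco1a4, an uptake carrier, stood at 21.7 CPM in the control and 72.9 at 96 h (log2 1.70). The other 14 lay within 2-fold (5.35% of all genes tested were past it), and Abcb11, the bile salt export pump, had -0.25.

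Fatty acid genes split. PPAR-alpha is the nuclear receptor that senses fatty acids. Of 23 of its targets and peroxisomal genes, 6 were higher (3.6% of all genes tested were). Angptl4 alone was lower (-1.17, with 1.75% of all genes tested lower), and the median of the 23 was -0.26. Cyp4a14, an omega-hydroxylase, stood at 1.8 CPM in the control and 8.3, 4.7 and 50.5 CPM at 24, 48 and 96 h, 28 times the control at 96 h (interval 18.7 to 44.1). Cyp4a10 stood at 16.2 CPM in the control and 9.22, 13.2 and 114 CPM at 24, 48 and 96 h. Both rose after 48 h. In the 87 and 53 cells with 10 to 20% mitochondrial UMIs the log2 ratio of Cyp4a10 was 1.21 against 2.74, and that of Cyp4a14 2.77 against 4.20. In the central range Cyp4a10 stood at 20.9 CPM in the control and 239 at 96 h, and in the portal range at 13.9 and 22.7. For Cyp4a14 the values were 2.16 and 113 in the central and 1.16 and 6.18 in the portal range. Cyp4a14, Cyp4a10 and Cyp4a31 are close copies of each other, and their counts are uncertain between copies.

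Fabp1, the fatty acid binding protein of hepatocytes, stood at 5386 CPM in the control and 4081, 6992 and 11687 CPM at 24, 48 and 96 h, 2.17 times the control, and was also abundant in free RNA (9783 and 22754 CPM), and with free RNA subtracted its log2 ratio was 1.18 against 1.12. The 6 were Cyp4a14, Cyp4a31, Fabp1, Acot2, Vnn1 and, named after its value was seen, Acot4, the last 3 at log2 ratios of 2.30, 1.17 and 1.12. Cyp4a14, Cyp4a31, Acot2 and Vnn1 were under 10 CPM in the control, so they entered through the 96 h library and had to be higher there. Mitochondrial oxidation genes had a median of 0.29 with Etfb alone past 2-fold (1.14), and fatty acid synthesis genes a median of -0.16 with Acacb alone past it (-1.30). Over all genes tested 5.35% were past 2-fold.

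Of 30 conjugation enzymes with at least 10 CPM, 7 were higher, 22 within 2-fold and Sult2a8, a sulfotransferase, was lower (-1.14). Over all genes tested 3.6% were higher and 1.75% lower. The 7 were among the list's 14 glutathione transferases, a grouping made after the values were seen, and the other 7 of these, with the abundant Gsta3 (0.28) and Mgst1 (-0.31), lay within 2-fold. Gsta1 stood at 0.751 CPM in the control and 17.1, 13.4 and 20.8 CPM at 24, 48 and 96 h. Gstm3 stood at 19.8 CPM in the control and 554, 61.6 and 73.9 CPM at 24, 48 and 96 h. These 2 genes were already above the control at 24 h, and Gstm3 had passed its highest level by 96 h. Gsta2 (1.76), Gsta4 (1.61), Gstm2 (1.49) and, named after their values were seen, Gstt2 (1.16) and Gstt3 (1.32) made up the rest. Gsta1 and Gsta2 were under 10 CPM in the control, so they entered through the 96 h library and had to be higher there. In the free RNA of the 96 h library Gsta1 stood at 44.7 CPM, above its level in the cells, and with free RNA subtracted its log2 ratio was 3.66 against 3.64. In the few cells with 10 to 20% mitochondrial UMIs, 87 and 53, Gstm2 had a log2 ratio of -0.32 and Gstm3 of 0.70, and with at least 3% of UMIs from the rule's genes 2.68 and 3.10.

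Cytochrome P450 genes of drug metabolism were near the control at 96 h, with a median of 0.03 over 25. The median had been -0.55 at 24 h and -0.14 at 48 h. Cyp3a11 was higher, at 1539 CPM in the control and 3585, 2253 and 3446 CPM at 24, 48 and 96 h, and Cyp2f2 (-1.07) and Cyp2d40 (-1.02) were lower. Of all genes tested 3.6% were higher and 1.75% lower. Cyp3a11 passed 2-fold in the portal range, with 339 CPM in the control and 1588 at 96 h, and in the middle range (561 and 2821), and not in the central range (3576 and 5532). In the cells with 10 to 20% mitochondrial UMIs its log2 ratio was -0.04, and with at least 3% of UMIs from the rule's genes 2.76. Cyp2f2, a periportal P450, stood at 1882 CPM in the control and 500.4, 274 and 895 CPM at 24, 48 and 96 h, and had regained part of its loss by 96 h. Cyp2e1, a pericentral P450 that oxidises ethanol, had -0.82, but -1.60 in the cells with 10 to 20% mitochondrial UMIs and 0.55 in those with at least 3% of UMIs from the rule's genes, so its direction turned with the choice of cells. Cyp2d40 lost its call in 6 alternatives and Cyp2f2 in 4.

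**Figure D4:**
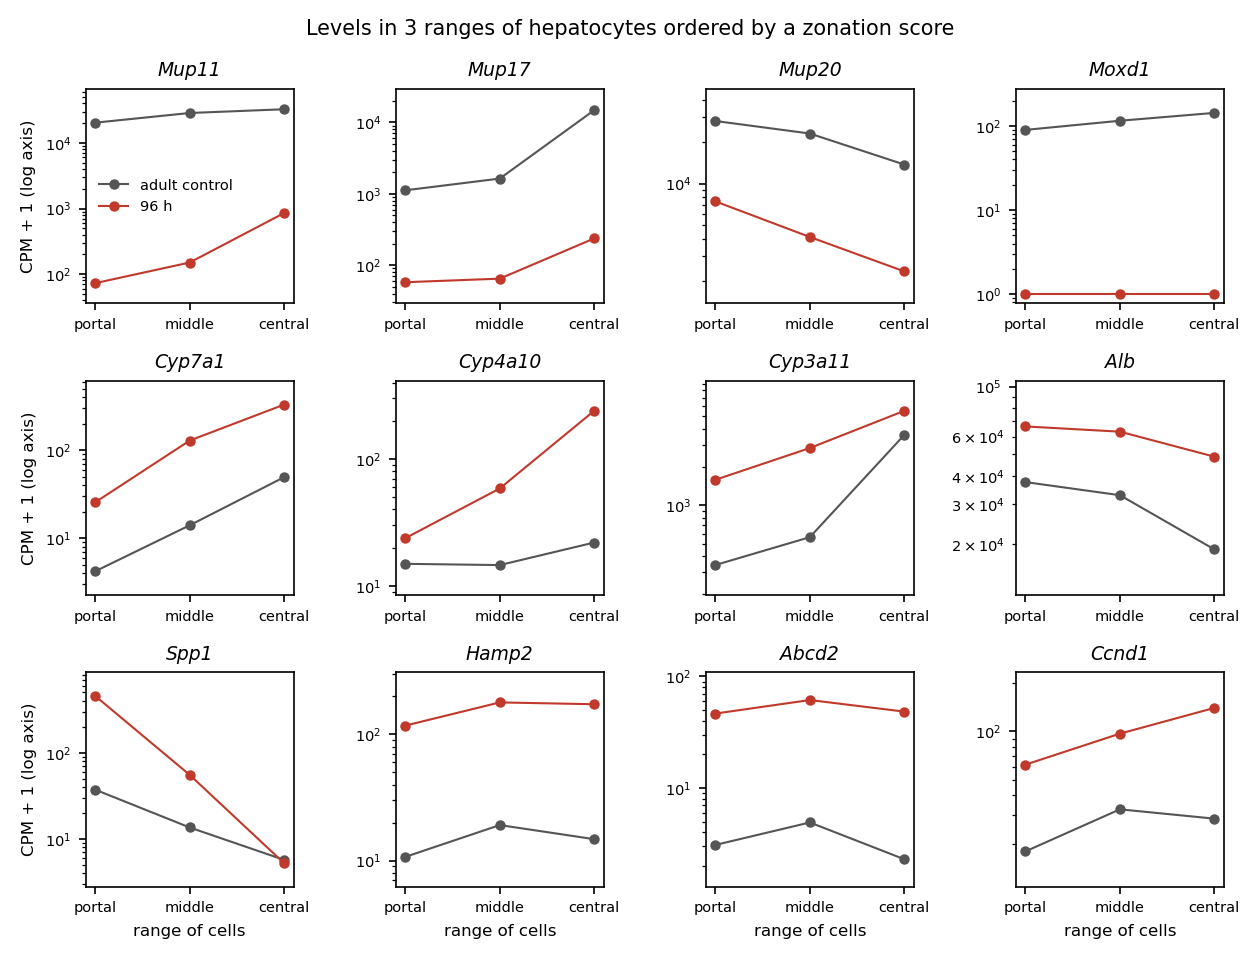
Levels of 12 genes in the portal, middle and central range of hepatocytes, ordered within each library by a score of pericentral over periportal genes, as CPM + 1 on log axes; grey is the adult control and red the 96 h library, each 1 library. Mup11, Mup17, Mup20 and Moxd1 are lower at 96 h in every range, Cyp7a1 is higher in every range, and the gap is widest in the central range for Cyp4a10 and in the portal range for Spp1.

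Of 28 secreted protein and apolipoprotein genes, 4 were at least 2-fold higher (3.6% of all genes tested were) and 0 lower, and the median of the list was 0.52. The 4 were Ttr, Apom, Apoc2 and Serpina6. Apoc2 was under 10 CPM in the control, so it entered through the 96 h library and had to be higher there. Without Alb, Apoa1 and Ttr, the genes of the hepatocyte rule, 3 of 25 were at least 2-fold higher and 19 were above 0, with a median of 0.48, and their sum was 8.42% of UMIs in the control and 10.1% at 96 h. Alb, serum albumin, stood at 29534 CPM in the control and 19565, 24291 and 58855 CPM at 24, 48 and 96 h, and Ttr, transthyretin, at 5010.4 CPM in the control and 4624, 5317 and 11406 CPM at 24, 48 and 96 h. The levels of the rule's genes are given as a description; in cells with at least 3% of UMIs from them, Alb had a log2 ratio of 0.59 and Ttr of 1.00. In empty droplets Ttr stood at 3557 and 15906 CPM. Apom, the carrier of sphingosine-1-phosphate on lipoproteins, was not part of the rule and stood at 294 CPM in the control and 530.1, 758 and 786 CPM at 24, 48 and 96 h.

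Acute phase genes as a whole were back near the control. The 26 genes of the list summed to 26693 CPM in the control and to 112378, 147148 and 27737 CPM at 24, 48 and 96 h. The medians over the 24 with at least 10 CPM were 1.45, 1.64 and -0.08 at the 3 times. Fga, a fibrinogen chain, stood at 3241 CPM in the control and 7919.8, 9909 and 3067 CPM at 24, 48 and 96 h, and Hp, haptoglobin, at 3126 CPM in the control and 5359, 8247 and 2439.7 CPM at 24, 48 and 96 h. Both were within 2-fold of the control at 96 h.

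Single acute phase genes were still apart, 4 of 24 higher (3.6% of all genes tested were) and 3 lower (1.75% of all genes tested were). Lcn2, an iron-scavenging lipocalin, stood at 72.3 CPM in the control and 4874, 3307 and 229 CPM at 24, 48 and 96 h, and its 96 h level was 3.17 times the control. Apcs, serum amyloid P, stood at 119 CPM in the control and 1975, 2006 and 355 CPM at 24, 48 and 96 h, and Serpina3m, a protease inhibitor with many close copies, at 43.6 CPM in the control and 550.4, 345 and 191 CPM at 24, 48 and 96 h. The metallothionein Mt1, named after its value was seen, was the other gene above 2-fold (1.07). Socs3, the feedback inhibitor of interleukin-6 signalling, was lower, at 69.7 CPM in the control and 40.4, 22.5 and 12.9 CPM at 24, 48 and 96 h. Saa3 (-1.63) and, named after its value was seen, Saa1 (-1.21) were the other 2 below, and in the cells with 10 to 20% mitochondrial UMIs Saa3 had 0.41. In the full set of cells Saa3 was under 10 CPM at 96 h, so it entered through the control library and had to be lower at 96 h. Serpina3c, of the same family as Serpina3m, was lower, at 121 CPM in the control and 34.9, 51.2 and 10.9 CPM at 24, 48 and 96 h.

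Hamp, hepcidin, the hormone that limits iron uptake, stood at 429 CPM in the control and 2188, 1114 and 1371 CPM at 24, 48 and 96 h, 3.2 times the control at 96 h. Id1, a target of BMP signals in the same pathway, stood at 3.0 CPM in the control and 75.1, 11 and 11.8 CPM at 24, 48 and 96 h, and Atoh8, a regulator of Hamp, at -1.06 on the log2 scale. These 3 were the only ones of 18 iron genes past 2-fold (5.35% of all genes tested were), and the median was -0.14. Id1 was under 10 CPM in the control, so it entered through the 96 h library and had to be higher there. Atoh8 was under 10 CPM at 96 h, so it entered through the control library and had to be lower at 96 h. In the free RNA at 96 h Hamp stood at 2170.5 CPM, and with free RNA subtracted its log2 ratio was 1.57 against 1.67.

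Several single genes stood out among growth signals and structural genes. Of 23 receptors and ligands, 4 were at least 2-fold higher (3.6% of all genes tested were) and 0 lower. Angptl8, Inhba and Cyr61 were among the 4. Cyr61 was under 10 CPM in the control, so it entered through the 96 h library and had to be higher there. Inhba, the subunit of activin A, which restrains hepatocyte growth, stood at 13.2 CPM in the control and 10.5, 14.8 and 39.7 CPM at 24, 48 and 96 h, and rose after 48 h. Angptl8, an insulin-induced regulator of lipoprotein lipase, stood at 22.5 CPM in the control and 50.5, 24.8 and 80.7 CPM at 24, 48 and 96 h. Gdf15, a stress-induced hormone, stood at 3.08 CPM in the control and 25, 21.8 and 25.7 CPM at 24, 48 and 96 h, 8.34 times the control, with like levels in the 3 operated libraries. Smoc2, a matricellular protein, stood at 1.28 CPM in the control and 5.74, 5.09 and 23.4 CPM at 24, 48 and 96 h, with 27.9 CPM in free RNA at 96 h. Spink1, a trypsin inhibitor of immature liver, stood at 0.526 CPM in the control and 3.02, 5.28 and 16.3 CPM at 24, 48 and 96 h.

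Of 23 cytoskeleton and adhesion genes, 8 were higher (3.6% of all genes tested were) and 0 lower, with a median of 0.72. Among the 8, Lgals1, Tubb6 and S100a11 were under 10 CPM in the control, so they entered through the 96 h library and had to be higher there. Krt18, a keratin of hepatocytes, stood at 78.9 CPM in the control and 348, 384 and 235 CPM at 24, 48 and 96 h, and Tubb6, a tubulin, at 3.75 CPM in the control and 38.7, 105 and 21.4 CPM at 24, 48 and 96 h. Lgals1, galectin-1, stood at 8.56 CPM in the control and 10.2, 13.1 and 48 CPM at 24, 48 and 96 h. Krt18 and Tubb6 were highest at 48 h and Lgals1 at 96 h. At 96 h Tubb6 stood at 7.62 CPM in the mitosis-negative and 105 CPM in the mitosis-positive cells. Lgals1 was at 89.4 CPM in the free RNA at 96 h, above its level in the cells.

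Spp1, osteopontin, is made by bile duct cells and by some hepatocytes near them. It stood at 17.6 CPM in the control and 67.9, 14.1 and 156 CPM at 24, 48 and 96 h, 8.87 times the control at 96 h (interval 7.75 to 10.2). At 96 h it went from 453 CPM in the portal range to 54.4 in the middle and 4.25 in the central range, and in the control from 36.3 to 4.74. The bile duct markers Krt19, Epcam and Cldn7 had 0 counts in both sets of cells and Krt7 had 0.0744 CPM at 96 h, while Sox9 was at 18 and 32.3 CPM and Tm4sf4 at 115 and 147. Prtn3, a granule protease of neutrophils, stood at 3.75 CPM in the control and 46.4, 220.2 and 33.3 CPM at 24, 48 and 96 h, while Elane and Mpo, of the same granules, were at 0.298 and 0.223 CPM at 96 h. The neutrophil markers S100a9 and S100a8 stood at 5.63 and 3.75 CPM in the control. At 96 h they stood at 12.8 and 8.23 CPM in the mitosis-negative and 6.86 and 4.75 CPM in the mitosis-positive cells. In free RNA at 96 h Prtn3 stood at 66.5 CPM, above its level in the cells, and Spp1 at 25 CPM, below it.

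Lists of metabolic and identity genes of hepatocytes had medians near the control. Their counts past 2-fold are read against 5.35% of all genes tested, and counts this small do not set the lists apart. Of 13 urea cycle genes 0 were past 2-fold (median -0.06), with Cps1, the entry enzyme, at 3366 CPM in the control and 5127, 1974 and 3134 CPM at 24, 48 and 96 h. Of 24 hepatocyte transcription factors 0 were past 2-fold, but they leaned downward, with 19 below 0 and a median of -0.33. Cebpa stood at 352 CPM in the control and 72.5, 81.2 and 263 CPM at 24, 48 and 96 h. Of 38 amino acid breakdown genes Sds alone was past it (1.06), and of 19 glucose genes Gys2, glycogen synthase, alone (-1.09). Gys2 stood at 168 CPM in the control and 37.4, 31.8 and 78.4 CPM at 24, 48 and 96 h. The list medians had been -0.67 for the urea cycle, -0.81 for amino acid breakdown and -0.89 for glucose genes at 48 h.

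Clock genes were also near the control. Of 17, 0 were past 2-fold at 96 h (5.35% of all genes tested were), and their median was -0.28, against -0.95 at 24 h and -1.82 at 48 h. Dbp, a clock output factor, stood at 152 CPM in the control and 9.07, 3.22 and 119 CPM at 24, 48 and 96 h. Clock hour at sampling was not given in the labels, so its part in these levels was not tested. In the zonated genes the median was 0.19 for 13 pericentral and 0.17 for 18 periportal genes. Aldh1b1 (1.83) and Sds were the only members past 2-fold (5.35% of all genes tested were). The pericentral median moved with the choice of cells, to 0.90 with at least 3% of UMIs from the rule's genes and -0.80 with 10 to 20% mitochondrial UMIs, whereas the periportal median was 0.05 and 0.40 in these settings. With at least 3%, Lect2 (1.97), Avpr1a (1.40), Rgn (1.39) and Aldh1a1 (1.00) were among the pericentral genes past 2-fold, and with 10 to 20% Gulo (-1.08) and Notum (-1.06) were.

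Nuclear-encoded respiratory chain genes leaned upward, 32 of 36 above 0 with a median of 0.51, against 0.04 over all genes tested. Ndufb2 (1.26) and Ndufa4 (1.02) were past 2-fold, a share near the 5.35% of all genes tested, and the Ndufa4 call was lost in 6 alternatives. Proteasome genes had a median of 0.47 with Psmb3 past it (1.27), and ribosomal protein genes a median of 0.14 with Rpl22l1 (1.06) and the pseudogene Rpl27-ps3 (1.27). The unfolded protein response had a median of -0.18 with Creld2 below (-1.22), and the Nrf2 list 0.19 with Nqo1 (1.46) and Srxn1 (1.13) above. In the interferon and MHC list Ifi27 alone was past 2-fold (1.69). Nqo1 and Rpl27-ps3 were under 10 CPM in the control, so they entered through the 96 h library and had to be higher there. Calls in the lists of this paragraph are read against 3.6% of all genes tested higher and 1.75% lower.

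**Figure D5:**
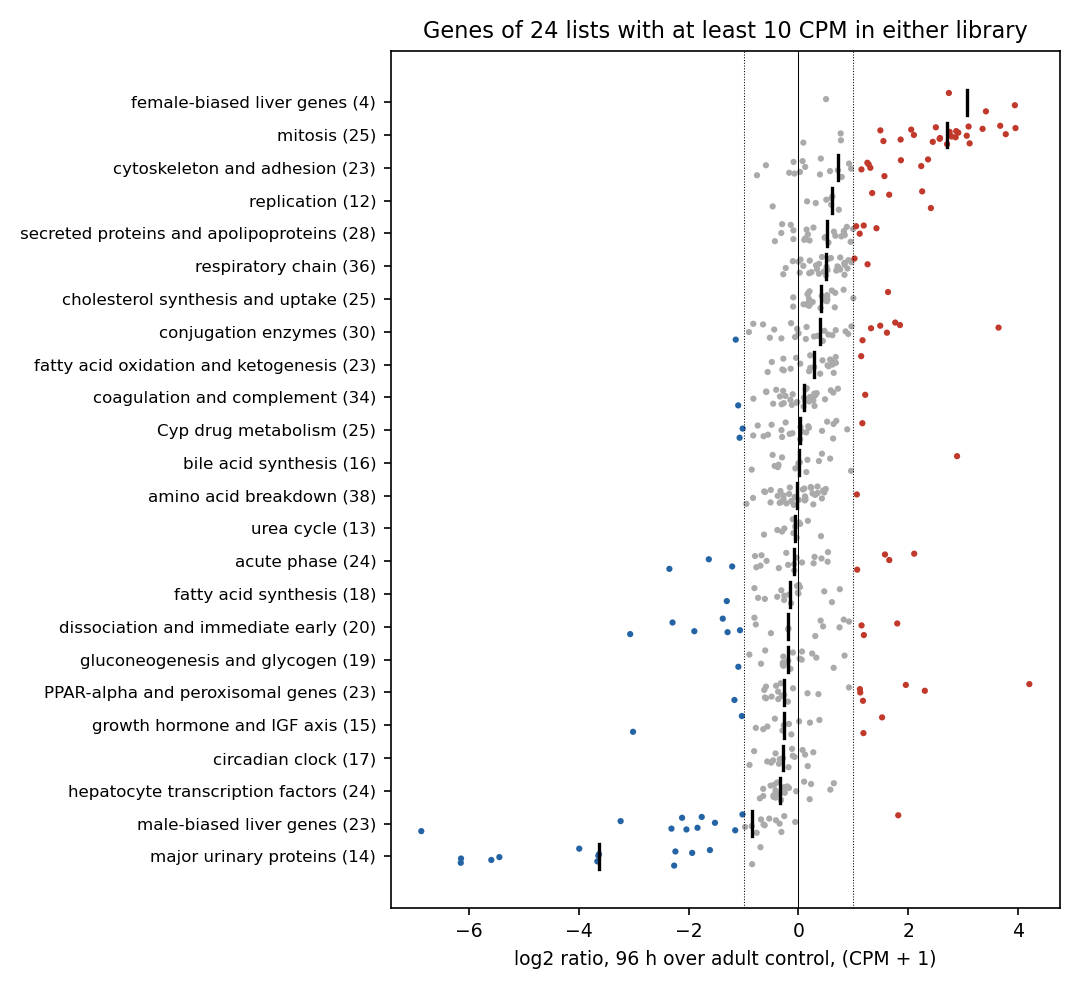
Log2 ratio of 96 h over control for the genes of 24 lists with at least 10 CPM in either library; each point is 1 gene, black bars are list medians, the number of genes is in brackets, and dotted lines mark 2-fold. The Mup list lies lowest with a median of -3.64, the mitosis list at 2.70, and most metabolic lists cluster around 0.

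Heat shock and immediate early genes, which tissue dissociation can induce, also differed. Of 20 with at least 10 CPM, 6 were lower (1.75% of all genes tested were) and 3 higher (3.6% of all genes tested were). Hsph1, a chaperone, stood at 134 CPM in the control and 63.1, 29.7 and 26.6 CPM at 24, 48 and 96 h, Hspa8 at 1006 CPM in the control and 599.6, 479 and 411 CPM at 24, 48 and 96 h, and Gadd45g, a stress and cytokine response gene, at 151 CPM in the control and 67.6, 66.7 and 17.2 CPM at 24, 48 and 96 h. All 3 were highest in the control. Hspb1 (-1.89), Hspa1b (-1.38) and, named after its value was seen, Gadd45a (-1.06) were lower too. Nr4a1 (1.80) and, named likewise, Jun (1.19) and Fos (1.15) were higher. Nr4a1 was under 10 CPM in the control, so it entered through the 96 h library and had to be higher there. Hspb1 was under 10 CPM at 96 h, so it entered through the control library and had to be lower at 96 h. In the 87 and 53 cells with 10 to 20% mitochondrial UMIs 4 of the lower genes did not pass 2-fold downward: Hsph1 had -0.68, Hspa8 -0.64, Hspb1 -0.45 and Hspa1b 1.54. The handling time of each liver was not given, and its part in these differences was not tested.

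Apart from the erythroid markers, the markers of other cell types summed here were low in the hepatocytes. In the control and at 96 h the 10 endothelial markers summed to 22.6 and 11.3 CPM, the 10 macrophage markers to 8.86 and 1.04, the 10 stellate markers to 6.46 and 12.1, the 10 T or NK markers to 29.6 and 8.56, the 8 B markers to 59.5 and 25.4, the 10 neutrophil markers to 15.2 and 55.4, of which Prtn3 gave most at 96 h, and the 7 erythroid markers to 721 and 325. Reln gave most of the stellate sum at 96 h (10.3 CPM), and Col1a1, the main collagen of that list, had 0 counts in both. Clec4f, C1qa, Marco and Timd4 of the macrophage list had 0 counts at 96 h. Without the cells that held 2 or more marker genes of another cell type or lay in the top 5% of UMIs, 282 genes were higher and 149 lower. This left 533 of 925 control cells and 354 of 771 cells at 96 h. The marker genes included Spp1, Sox9, Tm4sf4 and Prtn3, which were counted in the summed hepatocytes, so more than doublets can have been removed. Empty droplets held a mean of 1328 UMIs in the control and 795 at 96 h, 7.17% and 3.60% of a median hepatocyte, and with that free RNA subtracted 289 genes were higher and 135 lower.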

How the data were processed

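The deposited files are raw matrices of UMI counts per gene and barcode, 31053 genes by 6794880 barcodes in each library, with software version 3.0.2 per the file headers. The submitters' processing notes name the build mm10, bcl2fastq 2.17.1.14, Cell Ranger and Seurat 3.1; a filter on cells and the handling of reads shared by gene copies are not given in the sources used here. Hepatocytes were selected by the stated rule, their counts summed per library and divided by the total without the 13 mitochondrial genes. Ratios are log2 of (CPM + 1) at 96 h over (CPM + 1) in the control, for genes with at least 10 CPM in either library. No doublet caller was run; an alternative left out cells with 2 or more marker genes of another cell type or in the top 5% of UMIs. Intervals are exact at 95% (Poisson for levels, conditional binomial for folds, Clopper-Pearson for shares). Shares of cells used counts thinned to 5000 UMIs. Leukocyte barcodes had under 10% mitochondrial UMIs and at least 3 T or NK cell or 2 B cell marker genes. Free RNA is the profile of barcode ranks 20001 to 60000. Coordinates are GENCODE M21 on GRCm38, matched for 30934 gene IDs.

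Named genes were the 20 largest and 20 smallest ratios among genes of at least 20 CPM, the 10 largest rises and falls in CPM, and of each list up to 5 by ratio and 3 by control level, beside genes that check identity. The 38 gene lists and 9 marker lists, the members and the rule were chosen with earlier results of these data known. A few list members are not reported here. The script was tested on simulated counts. Tools were Python 3.11.15, numpy 2.4.6, scipy 1.17.1, pandas 2.3.3, matplotlib 3.10.9, R 4.3.3, and, for scaling factors only, edgeR 4.0.16 and DESeq2 1.42.0.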

Additional observations from a re-analysis of the deposited data

How the results depend on the processing

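Of 18 alternatives to the selection of cells, the scaling, the pseudocount and the minimum level, 1 (10 to 50% mitochondrial UMIs) was chosen after seeing the data, as were the split of cells by zone score and by mitosis genes. The 265 genes higher and 129 lower became 476 and 492 in the 87 and 53 cells with 10 to 20% mitochondrial UMIs, 133 and 60 with a pseudocount of 10 CPM, 107 and 59 at a minimum of 50 CPM, and 542 and 227 without a minimum; the cause was not tested for the first, and the others change which genes can be called. In the 14 other settings both counts stayed within 1.5 times, at 206 to 294 higher and 108 to 163 lower. Of the 119 named genes past 2-fold, 71 stayed past it in every alternative that gave them a value and 48 did not in at least 1, of which 24 were lost with the pseudocount of 10 CPM or 10 to 20% mitochondrial UMIs alone. The 11 Mup genes named by the rule, Moxd1, Abcd2, Hamp2, Cyp7a1, Cyp4a14 and Spp1 are among the 71. The mitosis median of 2.70 became 0.51 without the cells with 3 or more mitosis or replication genes, a removal that used the list's own genes. It became 1.15 with the pseudocount of 10 CPM, 1.52 at 50 CPM and 1.20 with 10 to 20% mitochondrial UMIs. The Mup median ranged from -3.72 to -2.24. Beside those 24, and among genes named in the report, the 2-fold call was lost in 6 alternatives for Cyp2d40 and Ndufa4, in 5 for Serpina6, in 4 for Cyp2f2, Irs2 and Sds, in 3 for Apoc2, Atoh8, Hspa1b, Rpl22l1, Srxn1 and Sult2a8, in 2 for Cyr61, Gys2 and Rrm1, and in 1 for Etfb, Fabp1 and H2afz. With at least 3% of UMIs from the rule's genes Mup9 went from -3.99 to -2.83 (to -6.73 with 10 to 20% mitochondrial UMIs, where Mup15 went from -3.64 to -5.61), and Cyp2e1, not called, turned from -0.82 to 0.55. In the 87 and 53 cells 34 of 108 called named genes with a value moved by over 1.5 times, and 4 called genes reversed: Cyp3a11 (-0.044), Gstm2 (-0.32), Hspa1b (1.54) and Saa3 (0.41). No paired analysis was possible because each group is 1 library, and for the same reason no replicate could be left out. Counting error limits genes near 10 CPM, and the spread between animals was not measured.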
